A study of Mus musculus with 5 samples.

Results

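The genes described here build the glutamate synapse: the subunits of the ionotropic glutamate receptors, the metabotropic receptors, the vesicular glutamate transporters and the Homer and Dlg scaffold proteins. They were chosen by name, as a list of 34 genes, and 31 of them, out of 18193 genes on the array, were read by a probe set annotated to that gene alone. Grin1, Grm6 and Slc17a8 had no such probe set and were not analysed here. The 31 genes were read by 64 probe sets. Each gene is represented by its brightest probe set, the one with the highest mean over all arrays, and the others serve as a check. The tissue was the dorsal lateral geniculate nucleus (dLGN), the visual relay of the thalamus, dissected from mice on a C57BL/6 background at postnatal day 0. The comparison was between Sema6A-/- knockout nuclei (KO, 2 arrays) and Sema6A heterozygous control (CTRL, 3 arrays), so the controls carried 1 disrupted copy of the gene too. Sema6a encodes a transmembrane semaphorin of axon guidance. Each array held RNA of nuclei pooled from pups of 1 genotype and more than 1 litter, and the sources used here do not give the number of pups or the part of the gene that was disrupted.

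Glutamate is the transmitter of the retinal axons that enter the dLGN, of the cortical axons that feed back to it and of the relay neurons themselves. AMPA and kainate receptors carry fast currents, NMDA receptors admit calcium when the cell is depolarised, and metabotropic receptors act through G proteins. Vesicular transporters load the transmitter, while Dlg and Homer proteins hold receptors in the postsynaptic density. At birth these synapses are immature, and receptor subunits are exchanged over the following weeks.

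Levels are given on the log2 scale, 1 per probe set and array, and a log2 fold change is the KO mean minus the CTRL mean on that scale. Sema6a itself read 7.81 and 7.85 in the KO pools, against 10.47, 10.65 and 10.39 in the CTRL pools (log2 fold change -2.68, standard error 0.12, limma adjusted p = 0.0236). Array medians lay between 6.39 and 6.42. The 12 markers of thalamic relay neurons were all above the median level of 6.39 on every array. Their summed level on the linear scale was 48731 and 56061 in the KO pools, against 49762 to 51213 in the CTRL pools. Single relay markers separated the genotypes in both directions. Both KO pools lay above every CTRL pool for 5 of the 12, among them Gbx2 (1.97) and Calb2 (1.13). They lay below for 3, Slc6a4 (-1.44), Slc18a2 (-0.87) and Rora (-0.36). Over all genes, the same rules take 15.8% above and 13.9% below. Slc6a4 read 7.98 and 10.599 in the KO, against 10.605 to 10.85 in the CTRL. Its KO replicate 2 thus lay only just below the lowest control, and the mean difference describes neither KO pool. Gbx2 also differed between the KO pools, with 9.02 and 11.22 against 6.95 to 8.86 in the CTRL. Summed levels of several other marker lists differed between pools. Markers of GABAergic and prethalamic neurons, of which 18 of 19 were measured, summed to 10387 and 1928 in KO replicates 1 and 2, against 1291 to 2309 in the CTRL pools. Markers of microglia, 14 of 15 measured, summed to 13723 and 9602 in the KO, against 2260 to 2861 in the CTRL. Cortical and hippocampal markers, 8 of 10 measured, summed to 2913 and 2291 in the KO, against 1080 to 1288 in the CTRL. That sum rested on Rprm, with 10.81 and 10.75 in the KO against 9.47 to 9.83 in the CTRL, and Bcl11b, with 9.80 and 8.55 against 7.41 to 7.92, while 5 of the 8 were below the array median in both genotypes and Tbr1 gave -0.52. Markers of the oligodendrocyte lineage, 9 of 10 measured, summed to 12169 and 13215 in the KO, against 9184 to 10168 in the CTRL. Means were higher in the KO for 7 of the 9, such as Mbp (1.55), and lower for 2. Mag, 1 of these 2, read 6.08 and 5.68 in the KO, against 6.47 to 7.01 in the CTRL (-0.92). Markers of meninges and fibroblasts, 6 of 6, summed to 866 and 820 in the KO, against 1490, 1004 and 3899 in the CTRL, where replicate 3 stood apart. No marker of these lists was at 0 on the log2 scale, which does not show that each was expressed. Neurod6, for example, read 2.13 to 2.29 in the CTRL pools, far below the array median. The gap between the 3′ and the 5′ reading of Gapdh, a measure of how evenly a transcript was copied, was 2.34 in KO replicate 1 and 0.96 in KO replicate 2, and in the CTRL pools it spanned 0.77 to 1.33. The part of cell content and of RNA quality in the results below was not tested. In such bulk samples, fewer cells of a type and less RNA per cell cannot be told apart.

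No gene of the glutamate synapse passed the adjusted threshold, and the lowest p-values belonged to the scaffold gene Dlg1 and the NMDA receptor subunit gene Grin3a, both read higher in the KO. In limma, 0 of the 31 genes passed an adjusted p of 0.05, where 0.104% of all genes and 0.0733% of all 45037 probe sets did. At an unadjusted p under 0.05, 3 genes were higher in the KO (Grin3a, Dlg1 and Grm4), against a background of 6.9% of all genes, and 3 were lower (Gria1, Grik3 and Grm8), against 4.9%. Together these 6 are 19.4% of the 31 genes, where the same rule takes 11.8% of all genes. The count depended on single arrays. Without CTRL replicate 3 only Dlg1 and Grin3a were left, 2 genes, where 8.23% of all probe sets passed, and without CTRL replicate 2 there were 3, where 8.20% passed. With an intensity trend and all arrays there were 10, where 11.2% of all probe sets passed. Grik3 was not among the genes that passed with any 1 CTRL array left out. It also did not pass with a further quantile normalisation, with each array centred on its median or with array weights. The adjusted p-values of the 31 genes ran from 0.229 to 0.991. Means were higher in the KO for 11 genes and lower for 20, where over all genes they were higher for 9396 and lower for 8797. The median log2 fold change of the 31 genes was -0.10, against 0.01 over all genes. Both KO pools lay above every CTRL pool for 5 genes, with 15.8% of all genes as background, and below every CTRL pool for 8, with 13.9%. These 13 genes without overlap are 41.9% of the 31, where 29.7% of all genes have none. The 95% limma interval of the log2 fold change stayed within a 2-fold difference in either direction for 26 of the 31 genes. Among all 18193 genes it did so for 15783. The exceptions among the 31 were Grin3a, Dlg1, Dlg4, Homer2 and Slc17a7. With 2 pools against 3, the smallest p that exact permutation of the pools allows for 1 gene is 0.1. Nothing in the labels says how pools relate to each other beyond genotype, so the p-values measure the spread between pools.

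**Figure D1:**
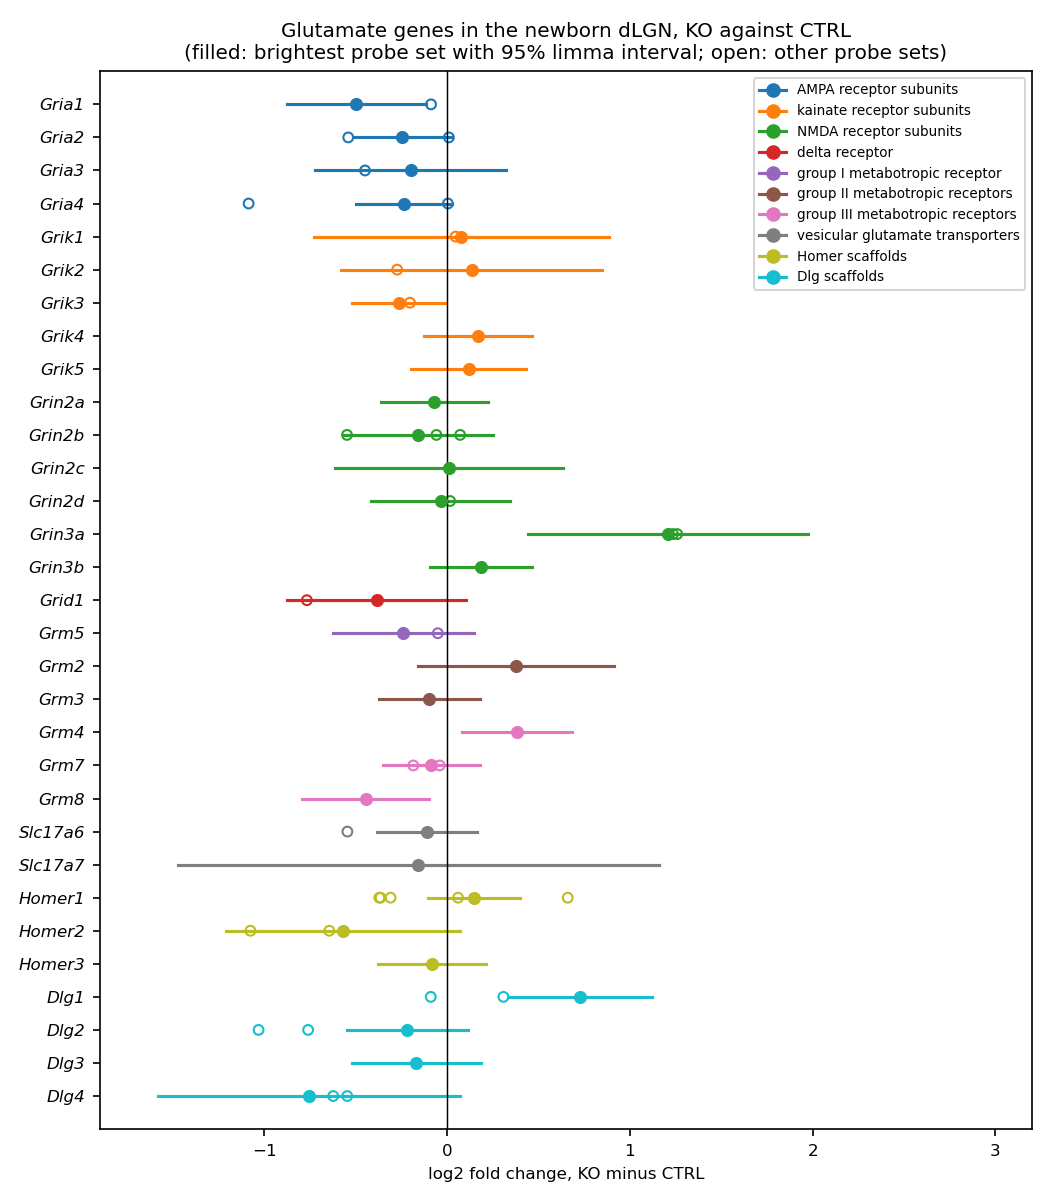
The log2 fold change, KO minus CTRL, is plotted on the x axis for each of the 31 genes, with the brightest probe set as a filled point, its 95% limma interval as a line and the other probe sets as open circles. Grin3a lies farthest to the right at 1.21, and its 3 probe sets nearly coincide, whereas the probe sets of Gria4, Homer1 and Dlg2 are spread out.

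None of the 4 AMPA receptor subunits passed the test. Their brightest probe sets all had lower means in the KO, with a median log2 fold change of -0.24. For Gria1, Gria2 and Gria4 both KO pools lay below every CTRL pool there, as they did for 13.9% of all genes. Each of these genes also had a probe set at which the groups overlapped. A further probe set of Gria2 and of Gria4 showed no overlap. Gria1, a subunit whose delivery to synapses is used in plasticity, read 10.52 and 10.17 in the KO, against 10.79, 10.76 and 10.98 in the CTRL. The difference was -0.50 with a standard error of 0.15 (limma adjusted p = 0.348), a 1.41-fold lower level. With KO replicate 2 left out it was -0.32, and with KO replicate 1 left out -0.67. The second Gria1 probe set did not separate the groups, with 10.93 and 9.81 in the KO and 10.34 to 10.64 in the CTRL. Gria1 lies on chromosome 11 from 57011571 to 57330244 in GRCm38.p6.

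Gria2, the subunit that keeps AMPA receptors impermeable to calcium, read 12.16 and 12.24 in the KO and 12.49, 12.47 and 12.36 in the CTRL, a log2 fold change of -0.24 (95% interval -0.51 to 0.03). Its other probe sets gave 0.01 and -0.54. Gria4, a subunit used widely in the thalamus, read 10.96 and 10.98 in the KO and 11.28, 11.17 and 11.16 in the CTRL, also -0.23 (95% interval -0.50 to 0.03). The probe sets of Gria4 disagreed more than those of Gria2. A dimmer Gria4 probe set gave -1.08, with 6.10 and 6.84 in the KO against 7.36, 7.54 and 7.76 in the CTRL (limma adjusted p = 0.251), and the third gave 0.01. Gria3, on the X chromosome, overlapped between groups, with 9.90 and 9.38 in the KO and 9.67 to 10.08 in the CTRL, and its difference of -0.20 turned to 0.063 without KO replicate 2.

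Of the 3 AMPA subunit genes whose KO pools both lay below every CTRL pool, Gria2 and Gria4 have a promoter in the RefSeq-derived table of GRCm38.p6, as do 22 of the 31 genes. Both are shown because they encode subunits of 1 receptor and had both KO pools below every CTRL pool at the brightest probe set. The array measured transcript levels, not promoter activity. Each window runs from 250 bases before to 50 bases after the start of the transcript, 5′ to 3′ on the minus strand. The windows are chr3:80802786-80803085 for Gria2 and chr9:4796185-4796484 for Gria4. The Gria2 gene reaches 80804227 at its 5′ end, so its window lies inside the gene, at a start other than the outermost. The Gria4 gene reaches 4796234, within its window. Capitals mark a match to the core of the NRF-1 motif, GCGCA and GCGC with 1 base of any kind between them, searched on both strands.

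Gria2: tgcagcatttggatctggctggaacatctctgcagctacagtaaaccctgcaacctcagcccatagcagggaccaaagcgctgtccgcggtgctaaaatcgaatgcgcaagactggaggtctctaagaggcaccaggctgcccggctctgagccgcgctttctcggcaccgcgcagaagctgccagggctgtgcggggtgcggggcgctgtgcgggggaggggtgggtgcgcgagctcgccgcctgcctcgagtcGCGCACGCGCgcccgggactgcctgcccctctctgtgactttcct

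Gria4: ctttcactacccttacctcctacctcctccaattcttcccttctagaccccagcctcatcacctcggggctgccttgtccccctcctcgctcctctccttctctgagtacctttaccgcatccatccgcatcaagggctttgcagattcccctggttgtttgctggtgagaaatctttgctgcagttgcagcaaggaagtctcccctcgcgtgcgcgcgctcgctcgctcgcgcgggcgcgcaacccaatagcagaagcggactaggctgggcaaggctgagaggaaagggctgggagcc

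The Gria2 window holds 1 match to the NRF-1 core, starting at base 6 after the transcript start, and the Gria4 window holds 0, while 4.60% of all 32851 promoter windows hold at least 1. Among the glutamate synapse genes with a promoter in the table, Dlg4 is the other one with a match. Neither window holds the GC box GGGCGG, found on either strand in 35.7% of all windows, or the TATA box TATAAA, found in 13.6%. The Gria2 window is 65.7% G or C with 26 CpG dinucleotides, and the Gria4 window 59.7% with 17, against medians of 52.7% and 7 over all windows. A match of letters does not show that a factor binds there.

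Kainate receptor subunits showed no common direction, and for 2 of them the KO pools fell on opposite sides of the controls. Grik1, a low-affinity subunit gene, read 9.89 in KO replicate 1 and 11.00 in KO replicate 2, against 10.33, 10.32 and 10.44 in the CTRL. Grik2, another low-affinity subunit gene, read 9.04 and 9.999 in the same order, against 9.30, 9.45 and 9.40. In both genes the CTRL pools lay close together while the KO pools bracketed them. The mean differences, 0.08 for Grik1 and 0.13 for Grik2, therefore describe neither KO pool. Left with KO replicate 2 alone the differences were 0.63 and 0.61, and left with KO replicate 1 alone they were -0.48 and -0.35. The second probe set of each gene showed the same split, with 8.32 and 9.31 for Grik1 and 7.40 and 8.81 for Grik2 in the KO. KO replicate 1, the lower pool for both, is also the pool with the high GABAergic markers and the large 3′ to 5′ difference. Whether either bears on the split of these 2 genes was not tested.

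Grik3, the third low-affinity subunit gene, was read evenly within each group. It gave 11.73 and 11.79 in the KO and 12.03, 11.99 and 12.07 in the CTRL, a difference of -0.26 with a standard error of 0.10 (limma adjusted p = 0.438). Its second probe set gave -0.20 with overlapping groups. Grik3 lies on chromosome 4 from 125490259 to 125714173, Grik1 on chromosome 16 from 87895901 to 88290863. The high-affinity subunit genes Grik4 and Grik5 gave 0.17 and 0.12, and their groups overlapped.

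Among NMDA receptor subunits, Grin3a stood apart. It encodes a glycine-binding subunit of young synapses that lowers the calcium permeability of the receptor and delays synapse maturation. Grin3a read 11.09 and 12.01 in the KO, against 10.08, 10.59 and 10.36 in the CTRL. Both KO pools were above every CTRL pool, and KO replicate 2 was the higher of them by 0.92, a wider gap than any between CTRL pools. The means were 11.55 ± 0.65 in the KO (SD, n = 2) and 10.34 ± 0.26 in the CTRL (SD, n = 3), a log2 fold change of 1.21 with a standard error of 0.31 and a 95% interval of 0.44 to 1.97. This is a 2.31-fold higher level, with an unadjusted p of 0.00887 and a limma adjusted p = 0.276.

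Differences of the same size came from the remaining Grin3a probe sets, which gave differences of the same size. The second one read 10.12 and 11.30 in the KO, against 9.15, 9.79 and 9.50 in the CTRL (1.24, limma adjusted p = 0.351). The dimmest read 6.28 and 7.99 in the KO and 5.43, 6.78 and 5.43 in the CTRL (1.26, limma adjusted p = 0.542), and here KO replicate 1 fell within the range of the controls. All 3 ordered the pools alike within each genotype, except that CTRL replicates 1 and 3 were level at the dimmest. With each array left out in turn, the difference at the brightest probe set ran from 0.75, without KO replicate 2, to 1.67, without KO replicate 1, and the adjusted p from 0.189 to 0.559. Grin3a lies on chromosome 4 from 49661611 to 49846023.

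The remaining NMDA subunits differed little. Grin2b, the main partner subunit of the newborn brain, read 12.002 and 12.47 in the KO against 12.38, 12.41 and 12.40 in the CTRL, a difference of -0.16 (95% interval -0.56 to 0.25), and its second bright probe set gave 0.07. Grin2d, a subunit of the embryonic and newborn diencephalon, gave -0.03 (95% interval -0.41 to 0.35). Grin3b, a relative of Grin3a best known from motor neurons, read 7.19 and 7.17 in the KO, just above the CTRL values of 6.94, 7.10 and 6.94. Grin2a, whose product joins the receptor as synapses mature, read 3.51 and 3.67 in the KO and 3.57 to 3.73 in the CTRL. Grin2c, a subunit of the mature cerebellum, read 5.03 and 5.23 in the KO and 4.68 to 5.47 in the CTRL. Both of these stayed below the median level of the arrays in each group.

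Grid1, which encodes a delta receptor that links to presynaptic neurexins through secreted cerebellins, read 10.09 and 9.71 in the KO against 10.55, 10.08 and 10.22 in the CTRL, with overlap. The difference of -0.39 was -0.58 without KO replicate 1 and -0.19 without KO replicate 2. Its dimmer probe set separated the groups, with 7.66 and 7.07 in the KO against 8.16, 7.95 and 8.27 in the CTRL (-0.77, limma adjusted p = 0.305).

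**Figure D2:**
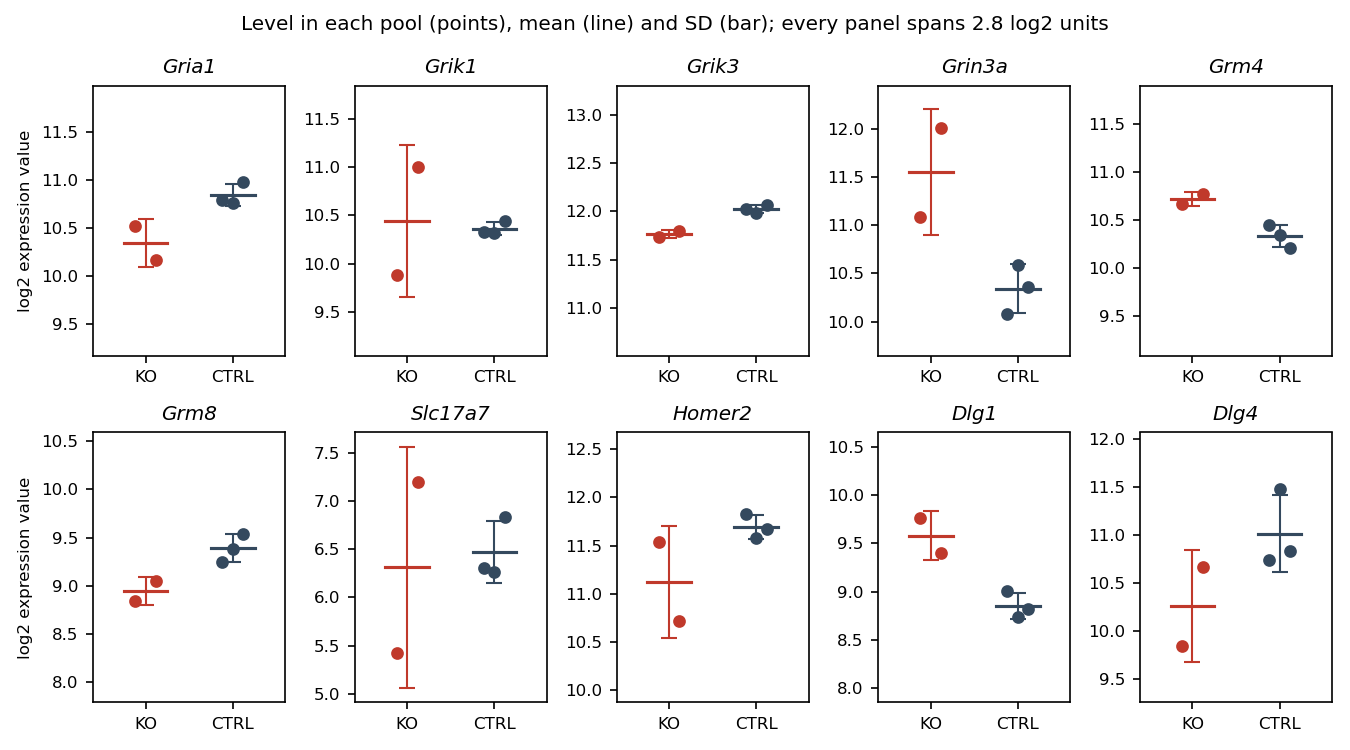
Log2 expression values of the brightest probe set are plotted for the 10 genes given in every pool by the naming rule, with KO at the left and CTRL at the right, points for pools, a line for the mean and a bar for the SD, and with the same span in each panel. Grin3a, Grm4 and Dlg1 have both KO points above all CTRL points, while the KO points of Grik1 and Slc17a7 lie on both sides of the CTRL points.

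The metabotropic receptors that sit on presynaptic terminals, group III, held 1 gene that was read higher in the KO and 1 that was read lower. Grm4 read 10.67 and 10.77 in the KO, against 10.45, 10.34 and 10.21 in the CTRL. The groups did not overlap, and the difference was 0.38 with a standard error of 0.12 (limma adjusted p = 0.358). Grm8 went the other way, with 8.84 and 9.05 in the KO against 9.25, 9.38 and 9.54 in the CTRL (-0.44, standard error 0.14, limma adjusted p = 0.358). Grm7, the third member measured, gave -0.09 with a 95% interval of -0.35 to 0.18, although both KO pools, at 11.95 and 11.94, lay just under the lowest CTRL pool at 11.97. Grm4 lies on chromosome 17 from 27422387 to 27513826 and Grm8 on chromosome 6 from 27275121 to 28135146.

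Grm5, the group I receptor that couples to phospholipase C and to Homer proteins, read 12.24 and 11.90 in the KO and 12.36, 12.16 and 12.41 in the CTRL (-0.24, 95% interval -0.63 to 0.15). That value was -0.41 without KO replicate 1 and -0.070 without KO replicate 2. Of the group II receptors, which inhibit transmitter release, Grm2 read 9.07 and 9.63 in the KO and 9.01, 8.75 and 9.16 in the CTRL (0.38, 95% interval -0.16 to 0.91). It was 0.65 without KO replicate 1 and 0.098 without KO replicate 2. Grm3, which is also found on glia, held the same value of 10.22 on 3 arrays, both KO replicates and CTRL replicate 2, so its spread is narrower than independent readings would give. Its other CTRL values were 10.34 and 10.40.

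Slc17a6, which encodes the vesicular glutamate transporter of thalamic relay neurons and retinal ganglion cells, was read almost alike in both genotypes at its brightest probe set. The values were 12.77 and 12.92 in the KO and 13.00, 12.90 and 12.96 in the CTRL, a difference of -0.11 with a 95% interval of -0.38 to 0.17. The second probe set separated the groups, with 11.83 and 12.12 in the KO against 12.49, 12.49 and 12.58 in the CTRL (-0.54, standard error 0.13, limma adjusted p = 0.254). Which transcripts or ends of the gene each probe set reads was not examined.

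Slc17a7, the transporter typical of cortical neurons, differed between the KO pools more than any other of the 31 genes. It read 5.43 in KO replicate 1 and 7.196 in KO replicate 2, against 6.31, 6.26 and 6.84 in the CTRL. The CTRL pools lay between the KO pools, and the mean difference of -0.16 had a 95% interval of -1.47 to 1.16. Left with KO replicate 2 alone it was 0.73, and with KO replicate 1 alone -1.04. These levels lie around the array median. Slc17a7 lies on chromosome 7 from 45163921 to 45176139.

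The scaffold genes held the second of the 2 larger higher values, Dlg1, and 2 of the larger lower values, Dlg4 and Homer2. Dlg1 encodes a scaffold of the Dlg family that takes part in the trafficking of AMPA and NMDA receptors. It read 9.76 and 9.40 in the KO, against 9.003, 8.74 and 8.82 in the CTRL. Both KO pools exceeded every CTRL pool, with a difference of 0.73, a standard error of 0.16 and a 95% interval of 0.33 to 1.12. That is a 1.66-fold higher level, with an unadjusted p of 0.00453 and a limma adjusted p = 0.229, the lowest of the 31 genes. With each array left out in turn the difference stayed between 0.55 and 0.91, whereas the mean of its 3 probe sets gave 0.32. The second probe set overlapped, with 6.89 and 7.30 in the KO and 6.58 to 6.89 in the CTRL (0.31). It held the same value of 6.89 in KO replicate 1 and CTRL replicates 1 and 2. The third, at 2.28 and 2.29 in the KO and 2.25 to 2.44 in the CTRL, was far below the array median. Dlg1 lies on chromosome 16 from 31663443 to 31873356.

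Dlg4, the main scaffold of the mature postsynaptic density, read 9.85 and 10.67 in the KO and 10.74, 11.47 and 10.83 in the CTRL. KO replicate 2 lay only just below the lowest control, and the difference of -0.75 had a 95% interval of -1.58 to 0.07 (limma adjusted p = 0.488). It was -1.16 with KO replicate 1 alone and -0.34 with KO replicate 2 alone. The other Dlg4 probe sets gave -0.62 and -0.55 with overlapping groups. Dlg4 lies on chromosome 11 from 70017203 to 70045535. Dlg2 and Dlg3, of the same family, overlapped between groups at their brightest probe sets (-0.22 and -0.17), and without KO replicate 1 these were -0.11 for Dlg2 and near 0 for Dlg3. The 2 dimmer Dlg2 probe sets did not overlap, at -0.76 and -1.03 (limma adjusted p = 0.420 and 0.256).

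Homer2, of the scaffolds that tie group I metabotropic receptors to intracellular calcium stores, read 11.53 and 10.71 in the KO, against 11.83, 11.58 and 11.67 in the CTRL. KO replicate 1 was just below the lowest control and KO replicate 2 well below it, with a difference of -0.57 (standard error 0.26, limma adjusted p = 0.495). Without KO replicate 1 it was -0.98 and without KO replicate 2 it was -0.16. A second probe set of Homer2 read 9.42 and 8.71 in the KO against 10.14, 9.89 and 10.40 in the CTRL (-1.07, limma adjusted p = 0.257). Homer2 lies on chromosome 7 from 81600481 to 81706925. Homer1, whose short form is induced by activity and uncouples the long forms, read 11.07 and 11.04 in the KO and 10.89, 10.94 and 10.90 in the CTRL (0.15), and its 6 probe sets ranged from -0.37 to 0.66. Homer3 gave -0.08.

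Of the 19 genes with more than 1 probe set, 12 had the same sign at all of them and 7 did not. Over all 64 probe sets, 5 were higher and 10 lower at an unadjusted p under 0.05, with 5.16% and 5.99% of all probe sets as background and 11.1% in either direction, and 0 passed the adjusted threshold in limma. In 7 genes a probe set other than the brightest reached that unadjusted level where the brightest one did not: Gria2, Gria4, Grid1, Slc17a6, Homer1, Homer2 and Dlg2. All of these but Homer1, which was higher, were lower in the KO there. Both KO pools lay above every CTRL pool at 7 of the 64, with 12.9% as background, and below at 15, with 14.5%, or 27.3% in either direction. Probe sets of 1 gene share the same RNA and can share transcripts, so they are not replicates of a result.

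**Figure D3:**
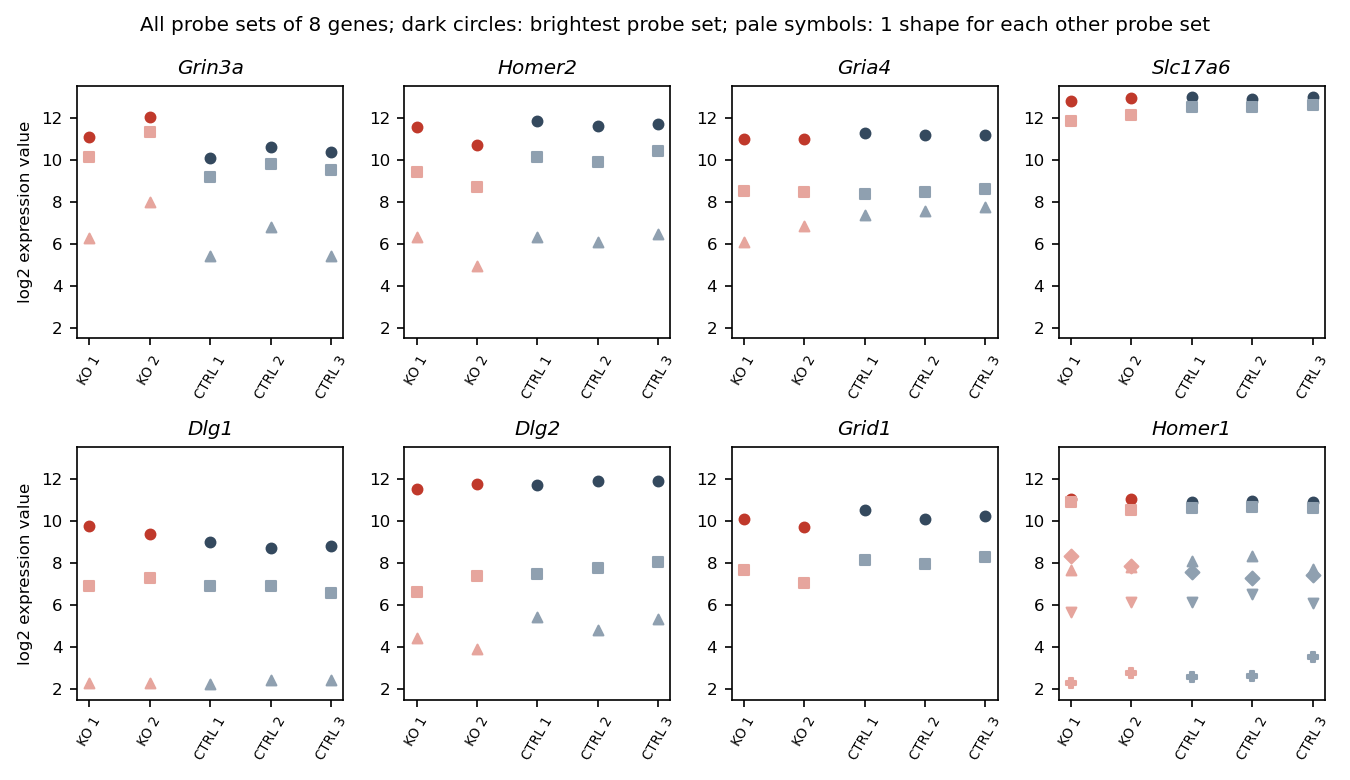
Log2 expression values of all probe sets are plotted by pool for 8 of the genes, with the KO pools at the left and the CTRL pools at the right, dark circles for the brightest probe set and 1 pale shape for each other probe set. The 3 probe sets of Grin3a are all highest in KO replicate 2, and the paler set of Slc17a6 is lower in both KO pools than in any CTRL pool.

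For 17 of the 31 genes, 54.8%, the gap between the KO pools was wider than the CTRL range, against 41.3% of all genes and 40.6% of all probe sets. The median gap between the KO pools over the 31 genes was 0.21, and the median CTRL range was also 0.21. Over all genes these medians were 0.19 and 0.25. KO replicate 1 was the lower pool for 18 genes and the higher for 12, with Grm3 level. Over all genes it was the lower for 8572 and the higher for 9332. The median deviation of the 31 genes from the CTRL mean was -0.15 in KO replicate 1 and -0.04 in KO replicate 2. The widest gaps with the low value in KO replicate 1 were those of Slc17a7, Grik1, Grik2, Grin3a and Dlg4, and those with the low value in KO replicate 2 were Homer2, Gria3 and Grin2d.

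**Figure D4:**
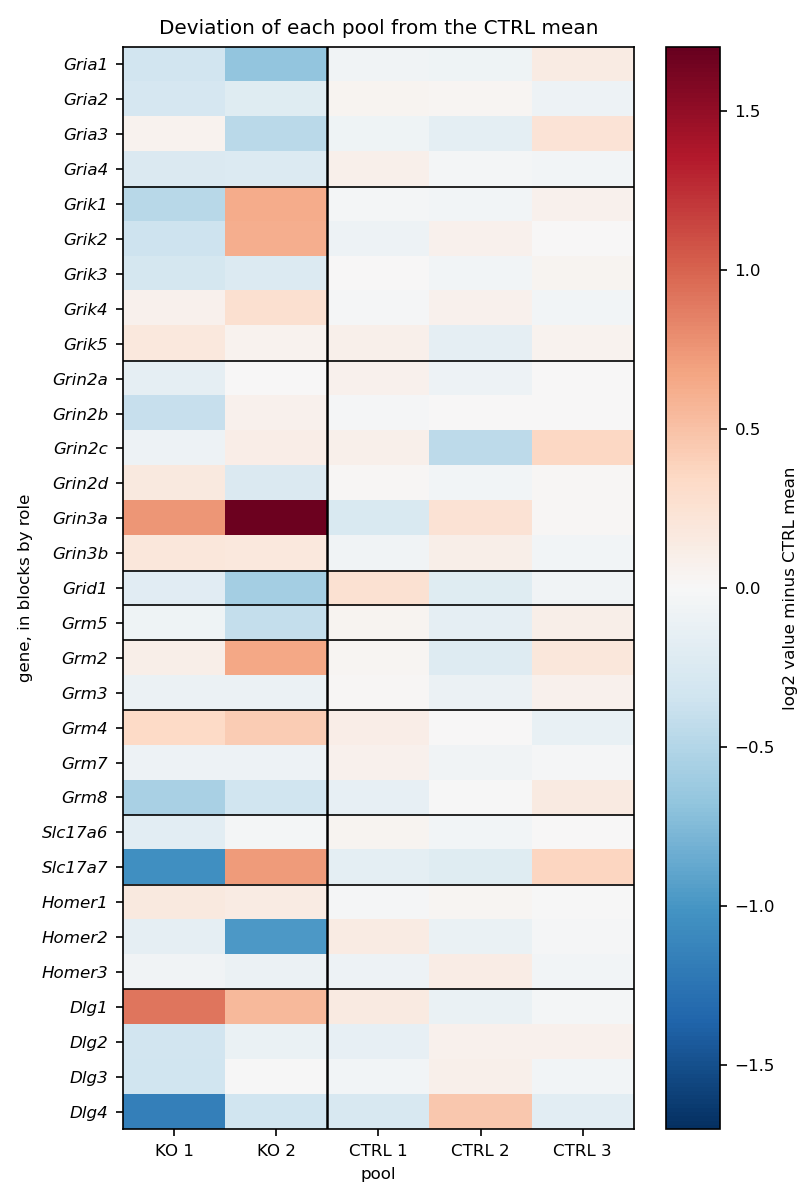
Each cell shows, by colour, the log2 value of a gene in a pool minus the mean of the CTRL pools, with genes in rows in blocks by role and the KO pools in the first columns. Grin3a is high in both KO pools, up to 1.67 in KO replicate 2, the AMPA subunits are pale blue in most KO cells, and Slc17a7, Grik1 and Grik2 change colour between the KO pools.

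Genes that act around these receptors were set beside them. Of 14 auxiliary subunits, 0 were higher and 1 was lower past the adjusted threshold in limma, while 3 were higher and 2 lower at an unadjusted p under 0.05, against 6.9% and 4.9% of all genes, with a median log2 fold change of 0.03. The 1 that fell was Gsg1l, an auxiliary subunit of AMPA receptors, with 9.04 and 8.65 in the KO against 11.34, 11.20 and 11.52 in the CTRL (-2.51, limma adjusted p = 0.0331). This call was lost with any 1 array left out. Of all genes, 0.104% passed the same adjusted threshold, in either direction. The list was drawn up with earlier results of these data known, so the choice of genes may have favoured such a call. Cacng5, another AMPA receptor partner, gave -0.76 (adjusted p = 0.175), Shisa6 0.83 (0.357) and Cnih3 0.51 (0.365).

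Of 18 further postsynaptic scaffolds and binding partners measured of 20, 0 passed the adjusted threshold in limma, while 4 were higher (6.9% of all genes) and 1 lower (4.9%) at an unadjusted p under 0.05, with a median of -0.03. Mpp3, of the membrane-associated guanylate kinase family, gave 0.81 (limma adjusted p = 0.254) and the scaffold gene Tanc1 -0.80 (0.183), while Grip2, which binds AMPA receptor tails, gave 0.40 and Tanc2 0.25. Of 14 signalling genes behind the receptors measured of 16, 0 passed in limma, with 3 higher and 2 lower at an unadjusted p under 0.05, beside the same 6.9% and 4.9% of all genes, and a median of -0.02. Plcb1, a phospholipase driven by group I metabotropic receptors, read 9.71 and 10.31 in the KO against 7.91, 8.18 and 8.18 in the CTRL (1.92, limma adjusted p = 0.0812). Rasgrf2, a calcium-sensitive activator of Ras, gave 1.39 (limma adjusted p = 0.113) and Plcb4, a phospholipase of thalamic neurons, -0.41 (0.363). The protein kinase C gene Prkca gave -0.73 (limma adjusted p = 0.135). Both KO arrays held the same Prkca value of 9.99, so its spread is narrower than independent readings would give.

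Glutamate uptake and metabolism had the narrowest range of log2 fold changes of these groups, from -0.24 to 0.28. Of 12 genes measured of 13, both KO pools lay above every CTRL pool for 2 and below for 4. Over all genes these shares are 15.8% and 13.9%. In limma, 0 of the 12 passed the adjusted threshold, where 0.104% of all genes did. An unadjusted p under 0.05 was reached by 0, against 11.8% of all genes, and the median was 0.05. The cystine and glutamate exchanger gene Slc7a11 gave 0.28, the amino acid transporter gene Slc38a2 -0.24, the neuronal glutamate transporter gene Slc1a1 -0.17 and Srr, which makes the NMDA receptor co-agonist D-serine, -0.18. The 95% limma intervals of all 12 stayed within a 2-fold difference, as did those of 15783 of all 18193 genes.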

How the data were processed

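The authors deposited RMA values on the log2 scale, 1 for each probe set and array, per the submitters' processing notes. RMA corrects background, applies quantile normalisation and combines the probes of each set into 1 value. The sources used here name no RMA version. Total RNA (20 ng an array) from vibratome sections of 200 µm was amplified before hybridisation to Affymetrix arrays, per the labels' protocols.

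Groups came from the sample titles. After 64 control probe sets were left out, 45037 entered a two-sided limma test of genotype (limma 3.58.1, lmFit and eBayes, under R 4.3.3), and p-values were adjusted over all 45037 by Benjamini-Hochberg. Residual degrees of freedom were 3 and prior ones 2.52. Every adjusted p and 95% interval comes from this fit. The platform annotation gave 34945 probe sets 1 gene, 932 several genes, from which none was named, and 9160 no gene. Summed marker levels are sums of the back-transformed values of each gene's brightest probe set. The number of arrays limits the precision.

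The 34 genes and the lists of markers and pathway genes were chosen with earlier results of these data known. Values in every array were given for genes with an unadjusted p under 0.05, for genes with non-overlapping groups and a difference of at least 0.5, and for genes whose KO arrays differed by at least 1, and for others where a clause turns on them. Up to 4 genes with the smallest p were named per pathway list. The fit was tested on simulated data. The alternatives were a replicate block, a further quantile normalisation, centring, a trended or robust prior, weights per array, a filter on dim probe sets, each array left out, a minimum fold of 1.5, a looser threshold and averaging the probe sets of each gene.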

Additional observations from a re-analysis of the deposited data

Results flagged for a closer look

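The hybridisation and housekeeping controls took no part in the comparison, and there KO replicate 1 lay above the highest CTRL array in the 3′ minus 5′ difference. That difference was 2.34 on the log2 scale for Gapdh in KO replicate 1, against at most 1.33 in the CTRL arrays, and 1.91 for Actb, against at most 1.45. KO replicate 2 gave 0.96 for Gapdh and 0.97 for Actb, within the CTRL range.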

How the results depend on the processing

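Across every alternative, 0 of the glutamate synapse genes passed the adjusted threshold in limma. The lowest adjusted p of any was 0.111, for Dlg2 with the mean of all its probe sets (-0.67). The count of all probe sets past the threshold, 33 with all arrays, was 0 with the replicate block and 0 with any 1 array left out, 98 without dim probe sets, 100 with an intensity trend, 19 with array weights and 158 at a threshold of 0.1. Grin2a and Grin2c were not tested without dim probe sets. Sema6a kept its direction but lost its call with the replicate block (-2.73, adjusted p = 0.298) and with any 1 array left out (-2.73 to -2.60). The median of the 31 genes ran from -0.149 to -0.035 with 1 array left out. Signs turned with 1 array left out for 8 genes: Gria3 (-0.46 to 0.063), Grik1 (-0.48 to 0.63), Grik2 (-0.35 to 0.61), Grin2a (-0.15 to 0.011), Grin2b (-0.39 to 0.079), Grin2c (-0.21 to 0.19), Grin2d (-0.24 to 0.17) and Slc17a7 (-1.04 to 0.73). They also turned for Slc17a7 with the replicate block (0.028), and for Grik2 (-0.069) and Homer1 (-0.029) with the mean of all probe sets. With 1 KO array left out, the remaining one is assumed to vary like the controls. The other 388 values kept their sign, and the cause of each change was not tested. Replicate numbers are shared by 2 pairs of arrays only, whose deviations from the group means correlated at 0.148 and 0.212. The labels do not say what a shared number means, so the numbers are treated as names and the block as an alternative. With the block, Gria1, Grik3 and Grm4 lost their unadjusted p under 0.05, and Dlg4, Grid1 and Homer2 gained one.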
